A study of Mus musculus with 51 samples.

Results

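The regions described here are the enhancers that first carried H3K27ac and H3K4me1 together in late astrocytes, called dual-gain sites below. They were chosen by the peak lists alone: an H3K27ac peak of the lA stage on chromosomes 1 to 19 was a dual-gain site if it overlapped an lA H3K4me1 peak and overlapped no H3K27ac or H3K4me1 peak of the 2 earlier stages by at least 1 bp. The rule took 4671 of the 90545 lA H3K27ac peaks on these chromosomes, or 5.16%. A further 161 peaks on X and 0 on Y met the rule but were outside it by chromosome.

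The lists come from an in vitro model of astrogliogenesis. Astrogliogenic neural precursor cells (aNPC, day 0) had been derived from mouse embryonic stem cells of C57/BL-6 background and were grown in DMEM-F12 with N2, EGF and FGF-2. They were then differentiated in DMEM with 1% FBS and LIF into early astrocytes (eA, day 1) and late, or mature, astrocytes (lA, day 5). No gene was depleted or deleted in these 3 groups. Each group had 2 biological replicates per mark, which the authors merged before calling peaks, so each stage and mark has 1 list and no replicate error can be given. The depth of the merged libraries is unknown here, and a site is called new only in the sense that no earlier peak was listed there.

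The 3 H3K27ac lists held 77553 (aNPC), 81348 (eA) and 90545 (lA) peaks on chromosomes 1 to 19, and the H3K4me1 lists 150527, 181227 and 203377. Both lA lists were the longest of their mark. Of 10 defining astrocyte genes, the number with an acetylated promoter was 7 in aNPC, 7 in eA (not all the same genes, since S100b was acetylated in aNPC alone and Gja1 from eA on) and 8 at the lA stage. The promoter of Aqp4, the astrocyte water channel, was under an H3K27ac peak in lA only, whereas that of Aldh1l1, an astrocyte folate enzyme, was under none at any stage. Of 4 defining neuronal genes, 2 were acetylated in aNPC (Tubb3 and Syt1) and 1, Tubb3, at each of the later stages. Of the 4 defining genes of oligodendrocytes, the 4 of microglia and the 2 of stem cells, 0 promoters were acetylated at any stage, and of 5 defining mesenchymal genes 2 were acetylated in eA and 1 in lA.

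H3K27ac is a histone acetylation found at active enhancers and promoters. H3K4me1 is a methylation that marks enhancers both when they are active and when they are primed, that is, marked ahead of use. In the usual account of enhancer activation H3K4me1 precedes H3K27ac, so that a site which gains both between the same sampled stages has no primed interval in the series. Which of the marks came first between day 1 and day 5 was not sampled.

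For reference, the 6 dual-gain sites with the highest −log10 q for H3K27ac in lA are shown. That value ranks the lA peak and does not measure the gain. Each is given as the 200 bp around the summit on the plus strand of mm9. Capitals mark exact matches to 10 short motifs that are spelled out further on.

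Scn7a, chr2:66576021-66576220: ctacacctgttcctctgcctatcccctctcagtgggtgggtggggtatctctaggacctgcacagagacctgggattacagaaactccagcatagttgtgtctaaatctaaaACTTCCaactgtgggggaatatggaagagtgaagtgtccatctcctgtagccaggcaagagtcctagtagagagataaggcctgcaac
4930423O20Rik, chr16:70378995-70379194: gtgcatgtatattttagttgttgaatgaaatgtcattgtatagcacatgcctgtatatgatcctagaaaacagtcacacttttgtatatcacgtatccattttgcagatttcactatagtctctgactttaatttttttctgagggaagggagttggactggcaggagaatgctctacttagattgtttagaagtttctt
Gm10110, chr14:90010069-90010268: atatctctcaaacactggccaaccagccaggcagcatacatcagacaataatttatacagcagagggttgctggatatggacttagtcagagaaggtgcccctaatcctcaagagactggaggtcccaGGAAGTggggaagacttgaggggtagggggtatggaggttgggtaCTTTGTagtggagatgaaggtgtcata
Wt1, chr2:105003502-105003701: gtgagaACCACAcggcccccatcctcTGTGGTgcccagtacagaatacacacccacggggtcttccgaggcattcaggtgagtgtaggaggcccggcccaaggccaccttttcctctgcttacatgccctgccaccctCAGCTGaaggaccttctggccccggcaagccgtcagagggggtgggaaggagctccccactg
Bmp2, chr2:133252504-133252703: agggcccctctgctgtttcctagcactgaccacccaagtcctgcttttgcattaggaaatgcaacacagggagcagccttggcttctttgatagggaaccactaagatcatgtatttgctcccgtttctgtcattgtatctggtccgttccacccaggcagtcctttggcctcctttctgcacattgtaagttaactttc
Siah2, chr3:58581721-58581920: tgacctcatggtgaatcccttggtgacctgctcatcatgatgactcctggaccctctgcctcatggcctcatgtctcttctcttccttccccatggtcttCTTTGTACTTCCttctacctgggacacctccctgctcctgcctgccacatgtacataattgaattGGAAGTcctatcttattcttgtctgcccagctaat

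The strongest site lay in an intron of Scn7a, a sodium channel gene known from glia, at chr2:66575709-66576710, with a −log10 q of 41.9 and an 8.68-fold enrichment for H3K27ac. The nearest earlier H3K4me1 peak was 9915 bp away, and its own H3K4me1 peak in lA was 237 bp wide. A site nearest to the start site of 4930423O20Rik, in an intron of the neighbouring glycogen branching enzyme gene Gbe1, at chr16:70378486-70379377 had a −log10 q of 37.9, and an eA H3K4me1 peak ended 5 bp from it. The third lay in a gene desert 288016 bp from the nearest coding start site, that of Gm10110, at chr14:90009976-90010537, and no earlier peak of either mark lay within 40622 bp. Its enrichment, 10.4-fold, was the highest of the 4671 sites. These strongest sites thus included both positions next to earlier H3K4me1 and positions far from it.

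A site in an intron of Wt1, a zinc finger transcription factor, at chr2:105003310-105003866 had a −log10 q of 33.5 for H3K27ac and of 30.9 for H3K4me1. Its window held 2 RUNX matches and 1 E-box match. A site 125340 bp upstream of Bmp2, a ligand that promotes astrogliogenesis, at chr2:133252318-133252791 had a −log10 q of 31.9, and every earlier peak of either mark was at least 12875 bp away. A site 85569 bp upstream of Siah2, a ubiquitin ligase, at chr3:58581618-58582164 had a −log10 q of 26.4 and lay 7091 bp from the nearest earlier peak. The next 6 had −log10 q values from 24.2 to 25.7. Among them were a site 826753 bp upstream of Lama4, a laminin subunit, a site 6222 bp upstream of Zbtb8a (24.8), an intronic site of Sh3rf2 (24.6), a site nearest to A2ld1 in an intron of Tmtc4 (24.2), the Gm9931 site described further on, and a site nearest to the start of Fam160a1, in an intron of Arfip1, that lay 53 bp from an eA H3K4me1 peak.

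Most dual-gain sites were small and weak peaks of the lA list. As a description, since the rule used these peaks, their median width was 276 bp (quartiles 217 and 385), their median fold 3.34 (2.93 and 3.89) and their median −log10 q 5.17 (3.94 and 7.09). The median of all lA H3K27ac peaks was 430 bp in width and 8.35 in −log10 q, and 83.6% of the dual-gain sites fell in the lower 50% of that list. A −log10 q of 10 or more was reached by 465 sites and one of 20 or more by 36. Together the sites covered 1.53 Mb.

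The 2 most similar classes were used for comparison. Among the 25084 lA H3K27ac peaks with no earlier H3K27ac, 18420 overlapped an lA H3K4me1 peak. Of these, 6992 (38.0%) overlapped an aNPC H3K4me1 peak and are called aNPC-primed (6738 of them overlapped an eA H3K4me1 peak as well), 6757 (36.7%) had H3K4me1 in eA but not in aNPC and are called eA-primed, and the 4671 dual-gain sites were the remaining 25.4%. The other 6664 lA-unique peaks overlapped no lA H3K4me1 peak. The median −log10 q of H3K27ac was 5.73 in the eA-primed class, 5.29 in the aNPC-primed class and 4.72 without H3K4me1. Dual-gain sites thus lay between the last of these and the aNPC-primed class in peak strength, close to the latter.

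The H3K4me1 peak at a dual-gain site was as a rule narrower than at a site of the primed classes, but wider than the lA H3K4me1 peaks as a whole. Its median width was 532 bp, compared with 732 bp at eA-primed and 861 bp at aNPC-primed sites, and its median −log10 q was 9.89, compared with 13.2 and 16.0. All 3 sets of values come from the same lA H3K4me1 list, whose peaks had a median width of 451 bp and a median −log10 q of 8.91. The rule used overlaps with the H3K4me1 lists, and wide or strong peaks overlap more. The H3K4me1 values of the classes, here and below, are therefore a description that the rule helped to shape. A single H3K4me1 peak overlapped 4502 of the sites (96.4%). The H3K27ac summit lay inside an H3K4me1 peak at 76.3% of the dual-gain sites, at 83.5% of the eA-primed and at 88.5% of the aNPC-primed sites. The median distance between the summits of both marks was 160 bp, and H3K4me1 covered a median of 81.4% of the H3K27ac peak. The strength of both marks was all but unrelated across the sites (Spearman's rho 0.039 between the −log10 q values, n = 4671 sites from the same pair of libraries).

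Peaks of eA H3K4me1 were more frequent in the near flanks of the sites than farther out. At the summit itself 0% of the sites lay under an aNPC or eA peak, which the rule fixed for H3K27ac and H3K4me1 alike. At 500 bp upstream, 17.3% of the positions were under an eA H3K4me1 peak and 5.99% under an aNPC H3K4me1 peak. At 3000 bp the shares were 5.14% and 4.39%, close to each other, and at 10000 bp upstream they were 7.43% and 5.48%. For H3K27ac, 4.15% (eA) and 1.26% (aNPC) of the positions 500 bp upstream were under a peak. At 10000 bp upstream the H3K27ac shares were 3.06% and 2.76%. In lA, 37.4% of the positions 500 bp upstream and 23.4% of those 1000 bp upstream were under H3K4me1. These shares are a description, since the rule required an lA H3K4me1 peak at the site and barred the earlier ones, and the eA H3K4me1 list was longer than the aNPC list. At 3000 bp upstream the lA share, 4.88%, was below that of eA, but at 3000 bp downstream it was above it, 5.07% compared with 4.54%.

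**Figure D1:**
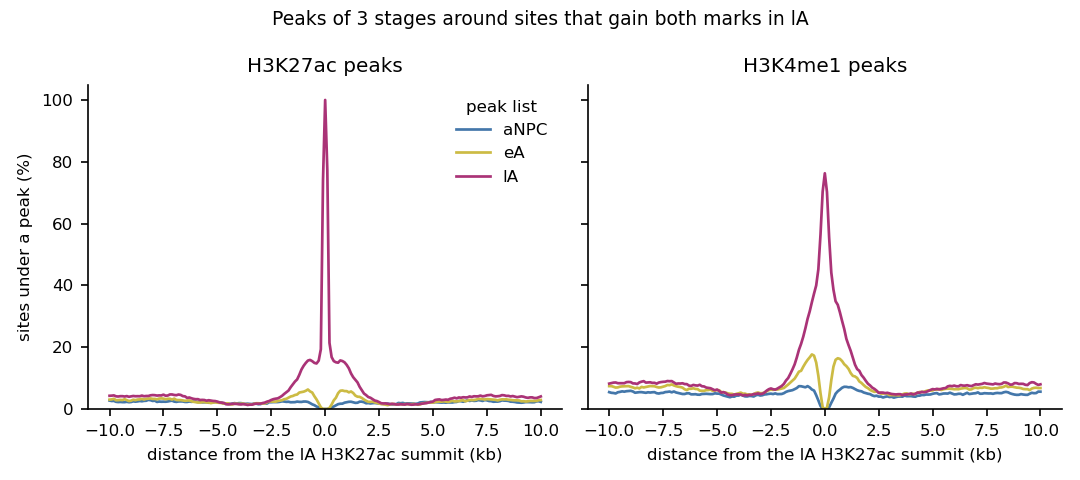
Share of the 4671 dual-gain sites (vertical axis, percent) whose position at a given distance from the lA H3K27ac summit (horizontal axis, kb) lay under a peak of aNPC, eA or lA, for H3K27ac (left) and H3K4me1 (right). The eA H3K4me1 line reaches 17.3% at 500 bp upstream and falls to 5.14% at 3000 bp, while both earlier lines are at 0 at the summit by the rule.

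More than 50% of the dual-gain sites were neighbours of earlier H3K4me1. The nearest earlier H3K4me1 peak was at a median distance of 622 bp, and 2643 sites (56.6%, 55.2% to 58.0%) had one within 1 kb. For H3K27ac the median distance was 5892 bp, and 1257 sites (26.9%, 25.7% to 28.2%) had an earlier peak within 1 kb. Most of the near H3K4me1 peaks were from eA: 1406 sites had an eA but no aNPC peak within 1 kb, 64 the reverse, and 1173 had both. Within 1 kb, 1140 sites had an earlier peak of each mark, 1503 of H3K4me1 alone and 117 of H3K27ac alone, and 1911 (40.9%) had neither.

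Over all dual-gain sites, most lA H3K4me1 peaks did not reach earlier H3K4me1. These sites include the 2028 that had no earlier H3K4me1 within 1 kb. At 3360 sites (71.9%, 70.6% to 73.2%) the lA H3K4me1 peak was itself new, overlapping no earlier H3K4me1 peak anywhere along its length. At the other 1311 (28.1%) the lA peak extended from the site to a neighbouring region that already carried H3K4me1. Because these distances come from the lists that the rule used, they are a description, and they depended on how the lists were cut. When each list of a mark, lA included, was cut to the same number of peaks by −log10 q, the share over 1 kb from earlier H3K4me1 was 54.8% in place of 43.4%, and with the lA lists alone cut at a −log10 q of 5 it was 46.7%. When the rule asked for the summit inside the other peak in place of any overlap, that share was 28.6%, and the share with a wholly new lA H3K4me1 peak was 47.9%.

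**Figure D2:**
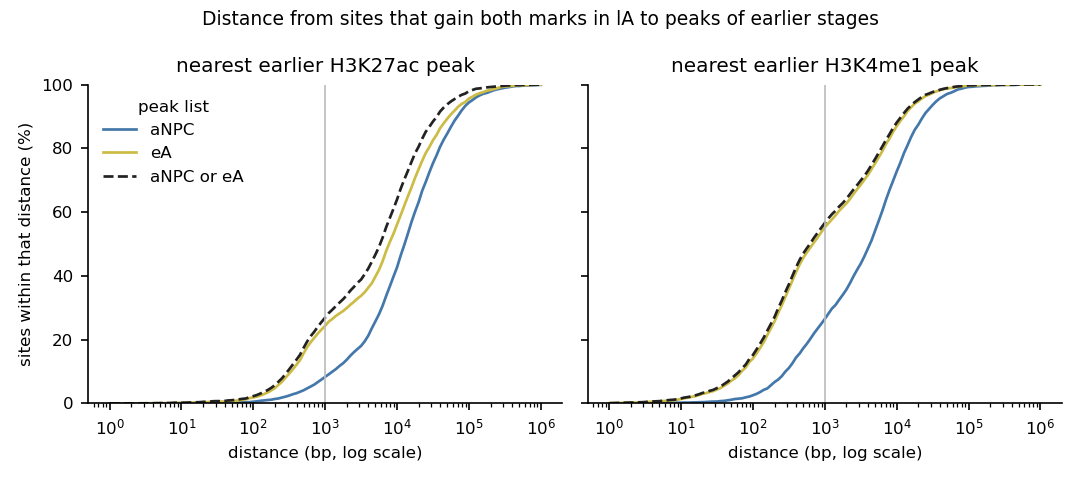
Cumulative share of the 4671 dual-gain sites (vertical axis, percent) with an aNPC peak, an eA peak or a peak of either stage within a given distance (horizontal axis, bp, log scale), for H3K27ac (left) and H3K4me1 (right); the vertical line is at 1000 bp. At that line 55.2% of the sites have an eA and 26.5% an aNPC H3K4me1 peak, against 24.3% and 8.33% for H3K27ac.

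At the edge of the rule, small shifts of a peak boundary decide membership. Of the dual-gain sites, 366 lay within 50 bp of an earlier H3K4me1 peak, and 555 lA-unique sites were kept out by an earlier H3K4me1 overlap of at most 50 bp. A site in an intron of Cdh6, a cadherin, at chr15:12997638-12997861 was just inside, 1 bp from an eA H3K4me1 peak. On the other side of the rule, 299 sites owed their place to at most 50 bp of overlap with lA H3K4me1, and 291 sites were outside only because the lA H3K4me1 peak ended within 50 bp.

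The opposite extreme was a set of 503 sites (10.8%, 9.91% to 11.7%) that were over 10 kb from every earlier peak of both marks. The strongest of them were the sites near Gm10110 and Bmp2 shown above. They were followed by a site 500140 bp from Gm9931 at chr1:149628867-149629556, with a −log10 q of 24.9. A site 2359 bp upstream of Vmn2r86, a pheromone receptor gene, at chr10:129895141-129895477 came next with 23.1 and was the strongest of a group of 4. Of all dual-gain sites, 51.4% lay within 10 kb of an lA H3K27ac peak that was shared with an earlier stage, and 88.0% within 50 kb. The same shares were not taken for other lA peaks or for random positions, so they cannot be read as a trait of these sites.

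Earlier acetylation was less frequent around dual-gain sites than around the primed classes. An earlier H3K27ac peak lay within 1 kb of 26.9% of the dual-gain, 36.7% of the eA-primed and 47.5% of the aNPC-primed sites, and the median distances were 5892, 4075 and 1463 bp. The order was the same on 19 of 19 chromosomes for each pair with the dual-gain sites. The rule barred overlap with these same lists, so the values carry no test.

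Dual-gain sites were distal. By the position of the peak centre, 2481 (53.1%, 51.7% to 54.5%) were intergenic, 2027 (43.4%) intronic, 99 (2.12%) exonic and 64 (1.37%, 1.07% to 1.75%) at a promoter, here the stretch from 1 kb before a coding start site to 100 bp after it. Among all lA H3K27ac peaks, 40.2% were intergenic and 9.76% at a promoter. The median distance to the nearest coding start site was 48902 bp, compared with 42685 bp for eA-primed and 35967 bp for aNPC-primed sites.

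Location was not used by the rule, so the classes were compared by the difference of their shares, with a 95% Newcombe interval that covers counting error over sites only. The intergenic share was higher at dual-gain sites by 2.74 percentage points than at eA-primed sites (0.874 to 4.60) and by 5.30 points than at aNPC-primed sites (3.45 to 7.15), on 12 and 16 of 19 chromosomes. The share over 50 kb from a coding start site was 49.6%, higher by 3.89 points (2.03 to 5.75, on 16 chromosomes) and by 8.46 points (6.61 to 10.3, on 17). The lA-unique peaks without lA H3K4me1 had an intergenic share of 55.1%, above that of the dual-gain sites. At promoters the difference from aNPC-primed sites was -1.82 points (-2.35 to -1.28), and that from eA-primed sites, 0.231 points, had an interval that included 0 (-0.178 to 0.669). With 1 merged list per stage, none of these intervals covers the variation between cultures.

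**Figure D3:**
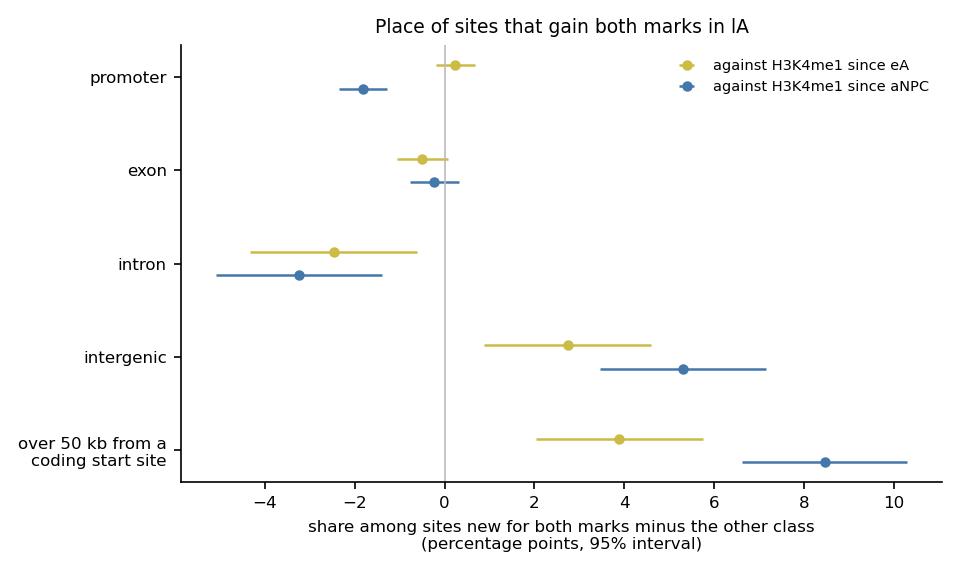
Difference in the share of sites at each place (horizontal axis, percentage points, dual-gain sites minus the other class) against the eA-primed class (H3K4me1 since eA) and the aNPC-primed class (H3K4me1 since aNPC), with 95% Newcombe intervals as bars. The share over 50 kb from a coding start site is higher by 3.89 and 8.46 points, and the promoter share differs from aNPC-primed sites by -1.82 points.

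The sites were spread over all 19 chromosomes. They made up between 3.28% of the lA H3K27ac peaks (chromosome 11, 193 of 5884) and 6.79% (chromosome 3, 362 of 5330), with densities from 1.48 to 2.31 sites per Mb. Another dual-gain site lay within 10 kb of 1143 sites (24.5%), and the median distance to the nearest one was 67298 bp. Grouping neighbours within 10 kb gave 3528 single sites, 479 pairs and 59 larger groups, none with more than 4 sites. Groups of 4 lay inside Adamtsl1 (chr4:85898667-85910568), near Tasp1, Mtpn, Casp12 and Fndc3a and beside Vmn2r86.

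The motifs searched on both strands in the 200 bp around the summit were TGAGTCA for AP-1, TGTGGT for RUNX, TTGGCA for the NF1 half-site, TTCNNNGAA for STAT, GGAATG for TEAD, TGTTTAC for FOX, ACAAAG for SOX, GGAAGT for ETS, TAATTA for homeobox factors and CAGCTG for the E-box. A match is a string of letters and no evidence of binding. At least 1 of the 10 motifs was found at 3037 dual-gain sites, and 1634 (35.0%) held none. Matches to different motifs can lie side by side or overlap, and each was counted for its own motif.

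The E-box, the kind of site bound by bHLH factors such as the proneural proteins, was the motif whose interval excluded 0 against both classes in the 200 bp window. Other motifs did so in wider windows, as given below. The E-box was present at 9.61% of the dual-gain sites (8.80% to 10.5%), 11.8% of the eA-primed and 13.8% of the aNPC-primed sites, and at 12.3% of all lA H3K27ac peaks. At lA-unique peaks without lA H3K4me1 its share was 10.7% (10.0% to 11.5%), an interval that overlapped that of the dual-gain sites. The differences from the eA-primed and aNPC-primed classes were -2.14 points (-3.27 to -0.985, on 16 of 19 chromosomes) and -4.15 points (-5.31 to -2.97, on 19). Base composition moved with it. The median GC content of the window was 46.0%, 47.0% and 48.5% in the 3 classes, and with the comparison classes reweighted to the GC content of the dual-gain sites the differences were -1.27 points (-2.38 to -0.144) and -2.27 points (-3.40 to -1.12). Over whole peaks they were -3.83 and -7.11 points, and in the 500 bp window the difference from aNPC-primed sites was -8.96 points.

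The other motifs differed less in the 200 bp window. AP-1 letters, bound by Fos and Jun dimers, were at 4.24% of the dual-gain sites and at 3.48% of all lA peaks. Against eA-primed sites the AP-1 difference was -0.689 points (-1.46 to 0.0987) and against aNPC-primed sites 0.249 points (-0.478 to 1.00). In a 500 bp window the former was -3.47 points and over whole peaks -2.50, with intervals that excluded 0. RUNX letters were at 15.5% (13.8% of all lA peaks), 14.8% and 15.8%, and both intervals included 0 (-0.585 to 2.09 and -1.67 to 1.02). The NF1 half-site, bound by the Nfia family, was at 11.6% of the sites (11% of all lA peaks), with a difference of -1.50 points from aNPC-primed sites (-2.71 to -0.282) and of -0.494 points from eA-primed sites (-1.69 to 0.719). Among sites with a −log10 q of 5 or more the former was 0.0552 points. In the 500 bp window both NF1 intervals excluded 0, at -4.05 and -2.19 points, as they did over whole peaks, at -4.49 and -3.24 points. Over whole peaks the RUNX difference from aNPC-primed sites was -1.73 points, also with 0 excluded.

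STAT letters, the type bound by Stat3 below LIF, were at 7.75% of the dual-gain sites and 6.13% of all lA peaks. Their share was higher by 1.50 points than at aNPC-primed sites (0.558 to 2.47, on 16 of 19 chromosomes), and by 0.824 points after GC reweighting, with an interval that included 0 (-0.182 to 1.84). TEAD letters, bound by the effectors of the Hippo pathway, were at 13.1% (11.2% of all lA peaks) and higher than at aNPC-primed sites by 1.32 points (0.102 to 2.55), an interval that included 0 in the 500 bp window, over whole peaks and outside promoters. Against eA-primed sites neither STAT (0.528 points, -0.446 to 1.53) nor TEAD (-0.852 points, -2.11 to 0.429) had an interval apart from 0, but TEAD was -2.33 points in the 500 bp window and -3.24 over whole peaks, with intervals that excluded 0.

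Homeobox letters were at 4.15% of the sites and 3.37% of all lA peaks, with a difference from eA-primed sites of 0.720 points (0.0130 to 1.45) whose interval included 0 under each alternative tried. FOX letters were at 2.72% (2.62% of all lA peaks), SOX at 17.6% (16.5%) and ETS at 12.5% (13.1%), and for these the intervals against both classes included 0. Under alternatives some did not: against aNPC-primed sites SOX was -1.53 points with GC reweighting and -1.90 over whole peaks, ETS was -1.75 over whole peaks, and FOX was 1.10 in the 500 bp window. Against eA-primed sites, whole peaks gave -2.29 points for SOX and -2.72 for ETS. Of the 20 differences, 6 had intervals that excluded 0, with no adjustment for their number. CpG was rare throughout: 26.5% of the dual-gain windows held none, compared with 22.1% of the eA-primed and 18.7% of the aNPC-primed windows, and with 25.8% of those of lA-unique peaks without lA H3K4me1.

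**Figure D4:**
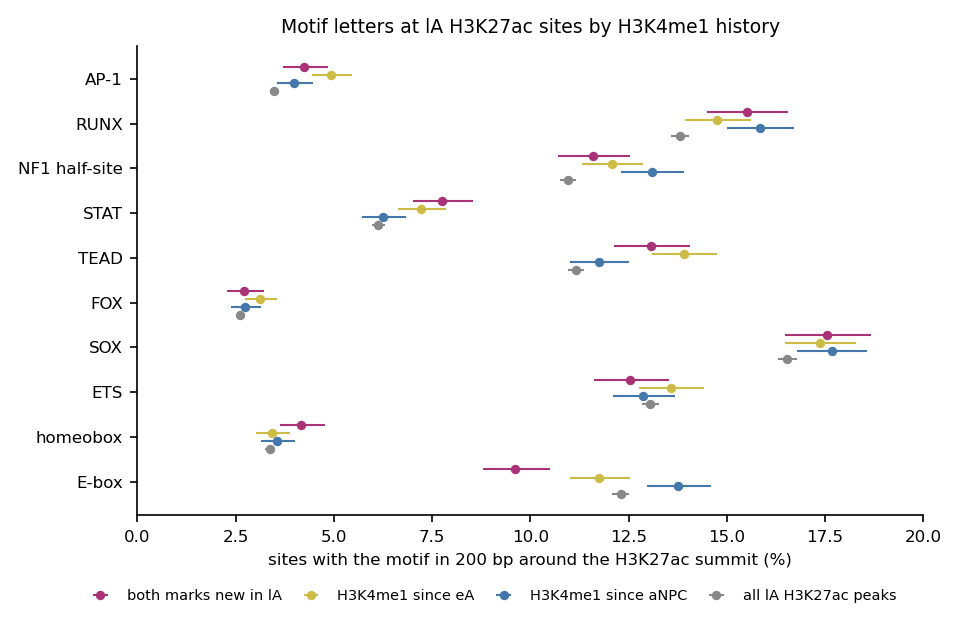
Share of sites with each motif in the 200 bp around the H3K27ac summit (horizontal axis, percent, with 95% Wilson intervals as bars) for dual-gain sites (both marks new in lA), eA-primed sites (H3K4me1 since eA), aNPC-primed sites (H3K4me1 since aNPC) and all lA H3K27ac peaks. The E-box is at 9.61% of the dual-gain sites and above 11% in the other 3 sets, while the RUNX shares of the first 3 lie between 14.8% and 15.8%.

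Among the dual-gain sites themselves, distance from earlier H3K4me1 went with small differences in motif content. AP-1 was at 4.98% of the 2028 sites over 1 kb from earlier H3K4me1 and at 3.67% of the 2643 nearer ones, higher by 1.31 points (0.141 to 2.53). ETS letters were at 13.8% and 11.6%, higher by 2.23 points (0.310 to 4.18). For the other 8 motifs the interval of this difference included 0. These were 10 comparisons, with no adjustment for their number, and the distances come from the lists that the rule used. Of the 201 AP-1 matches, 58.2% lay within 50 bp of the summit, and for the other motifs this share ranged from 49.2% (STAT) to 56.0% (homeobox). An even spread over the 200 bp window would also put many matches there, and these shares were not tested.

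Sites in a gene or at a promoter, and intergenic sites under 50 kb from a coding start site, were given to the gene of the closest such start. A site in an intron was therefore at times given to a neighbour of the gene that holds it. This gave 3173 sites (67.9%) to 2160 genes, or 10.1% of the 21418 coding genes on these chromosomes, and left 1498 intergenic sites without a gene. Of these genes 1510 received 1 site, 437 received 2 and 213 received 3 or more. A site of one of the primed classes had also been given to 1436 of them (66.5%). Of all coding genes, 14.7% were given an eA-primed and 16.1% an aNPC-primed site. The share given either was not taken, and the part of gene length in the overlap was not tested. The genes given a dual-gain site were long, with a median of 57.2 kb compared with 15.5 kb for all coding genes. In the class of the longest genes (median 256 kb) 40.5% of 1310 genes were given a distal dual-gain site. In that of the shortest (median 5.06 kb) it was 4.75% of 11169. The part of gene length in which genes were given sites was not tested.

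The 10 genes given the most sites were long, with the exception of Lrtm1. Adamtsl1, which encodes an ADAMTS-like matrix glycoprotein, received 13 sites with −log10 q values from 2.75 to 14.4, together with 9 eA-primed and 3 aNPC-primed sites. Ube2e2, a ubiquitin-conjugating enzyme gene, received 10, of which the strongest, chr14:19489665-19490859, had a −log10 q of 23.8 and was 6653 bp from the nearest earlier H3K4me1 peak. Park2 and Fhit, which span large fragile regions of the genome, received 10 each, with strongest −log10 q values of 11.1 and 10.3. Sorbs2, a cytoskeletal adaptor, received 9, of which the strongest had a −log10 q of 13.1, and 0 eA-primed and 2 aNPC-primed sites. Setbp1 received 8.

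Erbb4, the neuregulin receptor, and Ank2, which encodes ankyrin-B, received 7 sites each. Lrtm1 and Lphn3, a latrophilin adhesion receptor, received 6 each, as did other genes. Ank2 received 0 sites of the primed classes. The 6 Lrtm1 sites all lay in introns of Cacna2d3, a calcium channel subunit gene that spans it. Cacna2d3 itself was given 4 further sites, which the closest-start rule counts apart from those 6. The promoters of 8 of these 10 genes were acetylated at all 3 stages, that of Fhit at no stage, and that of Lrtm1 in lA alone.

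Promoters of the genes near dual-gain sites had mostly been acetylated before. Leaving out sites at promoters, 2119 genes had been given a site, and 1476 of them (69.7%, 67.7% to 71.6%) had a promoter under an aNPC or eA H3K27ac peak, compared with 55.4% of all coding genes. A promoter acetylated in lA and not before was found for 43 (2.03%), and at no stage for 600 (28.3%), compared with 0.999% and 43.6% of all coding genes. The share acetylated before was 68.5% for genes of eA-primed and 69.7% for genes of aNPC-primed sites, and these promoter states carry no test. The share also rose with gene length: among the shortest genes it was 42.1% with a dual-gain site and 41.4% for all coding genes, and among the longest 83.0% and 73.7%.

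The gene groups that follow were described by how many of their matched genes were given a dual-gain site, beside 10.1% of all coding genes. The comparison shares are 14.7% of coding genes for eA-primed and 16.1% for aNPC-primed sites. Shares above 35% were found for the Runx list of 4 genes and for the TGF-beta and BMP, Hippo, matrix and mesenchymal lists. Median gene lengths were 61.1 kb for the TGF-beta and BMP list, 35.3 kb for the Hippo list, 46.0 kb for the matrix list and 12.3 kb for the mesenchymal list, the last below the 15.5 kb of all coding genes. The adhesion list had a median length of 109 kb and a share of 23.1%. The part of length in these counts was not tested.

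Of 34 extracellular matrix genes, 13 (38.2%) were given 17 sites, and 14 (41.2%) were given eA-primed and 14 aNPC-primed sites. Col11a1, a fibrillar collagen chain, received 3 intronic sites. The strongest, chr3:113784550-113785039, had a −log10 q of 16.0 and lay 15 bp from an eA H3K4me1 peak and 25 bp from an eA H3K27ac peak, whereas the other two lay over 11 kb from every earlier peak. Thbs1, the secreted thrombospondin by which astrocytes promote synapses, received 2 sites, one 1628 bp and one 26486 bp upstream of its start. Adamts9, a matrix protease, also received 2, and Timp3, a protease inhibitor, received 1 with a −log10 q of 11.0, in an intron of the neighbouring Syn3. Sites also fell to Sparc, Fbn1, Vcan, Loxl1, Postn, Lama4, Col6a2, Col12a1 and Tnc.

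Of 29 TGF-beta and BMP pathway genes, 12 (41.4%) were given 14 sites, 15 were given eA-primed and 12 aNPC-primed sites. Among the receptors, Tgfbr2 received 2 intronic sites, 21295 and 15746 bp from a start site. Acvr1, a type I receptor, received 2, including the single dual-gain site at a promoter of any listed gene: chr2:58368547-58368809, 5 bp from a coding start site, with a −log10 q of 3.84 for H3K27ac and 16.2 for H3K4me1. Bmpr1b received 1. Among the targets, Id2, an inhibitor of bHLH factors, received 1 upstream site with a −log10 q of 13.6, 42 bp from an eA H3K4me1 peak. The ligand Bmp2 received none under the 50 kb limit, since the strong site described above was intergenic and farther away.

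Of 17 Hippo pathway genes, 7 (41.2%) were given 9 sites. Sav1, the scaffold of the Hippo kinases, received 3 adjacent sites between 10991 and 12557 bp upstream, with −log10 q values of 14.4, 8.58 and 4.23, and every earlier peak was over 9 kb from them. The kinases Stk3 and Stk4, the coactivator Yap1 (at chr9:7979849-7980183, intronic, −log10 q 6.62), the target Cyr61, Amotl2 and Tead4 received 1 each. Of the 17, 8 were given eA-primed and 4 aNPC-primed sites.

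Of 24 astrocyte markers, 5 (20.8%) were given 8 sites, compared with 6 given eA-primed and 8 aNPC-primed sites. Nfia, the gliogenic nuclear factor I gene, received 3 sites with −log10 q values from 3.13 to 4.80, 2 in its own introns and 1 that lay 41789 bp upstream in an intron of a neighbouring gene. Aqp4 received 2, which lay 74629 and 89839 bp upstream in introns of Chst9. The glutamate transporter gene Slc1a2 received 1 site downstream of it, chr2:102668638-102669071, in an intron of Cd44, with a −log10 q of 4.46 for H3K27ac and 23.9 for H3K4me1, over 6 kb from every earlier peak. Id3, an inhibitor of bHLH factors, and Cd44, the hyaluronan receptor, received 1 each. Gfap, the astrocyte filament gene, received none.

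Runx2 received 3 sites and Runx1 2, the members of a list of 4 that were given any, and 2 of the 4 were given sites of each primed class. The Runx2 sites were intronic, between 84381 and 220827 bp from the start, and weak, with −log10 q values of 3.62, 3.62 and 3.81, and 4 eA-primed and 4 aNPC-primed sites were given to the gene as well. Both Runx1 sites lay within 20 bp of an eA H3K4me1 peak. For the list of AP-1 and related factors, 2 of 19 genes (10.5%) were given 1 site each, Fosl2 and Bach2, close to the share of all coding genes, while 5 were given eA-primed and 7 aNPC-primed sites.

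For 4 listed genes given 3 sites each, the site with the highest −log10 q of that gene is printed in the same way as before, since these are loci to which the preceding counts refer: Col11a1 (matrix), Sav1 (Hippo), Nfia (astrocyte) and Runx2. Stronger sites of the astrocyte and Runx lists lay at other genes, Aqp4 and Id3 (−log10 q of 8.33 and 6.58) and Runx1 (5.27).

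Col11a1, chr3:113784645-113784844: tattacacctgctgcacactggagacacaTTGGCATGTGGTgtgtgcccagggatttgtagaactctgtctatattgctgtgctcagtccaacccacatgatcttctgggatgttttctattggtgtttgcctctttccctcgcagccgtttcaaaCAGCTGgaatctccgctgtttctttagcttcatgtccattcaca
Sav1, chr12:71098962-71099161: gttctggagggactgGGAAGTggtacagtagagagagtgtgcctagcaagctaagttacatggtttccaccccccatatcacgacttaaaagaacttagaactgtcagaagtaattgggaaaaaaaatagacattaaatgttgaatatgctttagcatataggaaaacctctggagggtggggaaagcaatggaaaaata
Nfia, chr4:97759499-97759698: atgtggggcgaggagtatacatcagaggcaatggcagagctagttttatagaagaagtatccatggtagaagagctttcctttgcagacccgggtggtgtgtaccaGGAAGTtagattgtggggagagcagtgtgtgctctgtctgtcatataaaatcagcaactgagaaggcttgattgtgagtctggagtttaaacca
Runx2, chr17:44787171-44787370: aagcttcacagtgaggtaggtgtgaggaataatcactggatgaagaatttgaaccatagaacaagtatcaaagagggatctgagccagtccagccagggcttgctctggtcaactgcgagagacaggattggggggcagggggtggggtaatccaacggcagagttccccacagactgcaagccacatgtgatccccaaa

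The Col11a1 window held adjacent NF1 half-site and RUNX letters and an E-box, those of Sav1 and Nfia held 1 ETS match each, and that of Runx2 held none of the 10 motifs.

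In the gp130, JAK and STAT pathway, which LIF activates, 6 of 25 genes (24.0%) were given 8 sites, compared with 10 given eA-primed and 7 aNPC-primed sites. Jak1, the kinase bound to gp130, received 2 upstream sites of which the nearer to its start was 10466 bp away, and Socs1, a feedback inhibitor, received 2 at over 73 kb, in introns of Clec16a. The cytokine gene Il6 received 1 upstream site with a −log10 q of 9.76, and Ptpn11, Il6st and Il6ra received 1 each. Stat3 and Lifr received none. Of 27 reactive astrocyte genes, 4 (14.8%) were given 6 sites: Ptx3, a pentraxin, and Cp, ceruloplasmin, 2 each, and Tm4sf1 and Emp1 1 each. Both Ptx3 sites lay upstream of it within Veph1. In this list 11 genes were given eA-primed and 6 aNPC-primed sites.

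Of 26 adhesion genes, 6 (23.1%) were given 9 sites, with 3 for Cadm1 and 2 for Cadm2, which encode synaptic adhesion molecules, and 1 each for Cdh11, Itga2, Cdh6 and Itga6. This list had more genes with primed sites, 11 for eA-primed and 14 for aNPC-primed.

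Lists of markers of other lineages were described in the same way. Of 16 mesenchymal genes, 6 (37.5%) were given 9 sites: Thy1, a surface glycoprotein also found on neurons, Prrx1, a homeobox factor, and Rgs5, a pericyte marker, 2 each, and Pdgfrb, Tbx18 and Foxc1 1 each. Sites of the primed classes were given to 4 (eA-primed) and 5 (aNPC-primed) of these genes. The Pdgfrb site was intronic with a −log10 q of 12.7. In this list, the promoters acetylated were those of 3 genes in aNPC, against 5 in eA and 4 in lA. Of the 5 defining markers, Acta2 was acetylated in eA and lA, Prrx1 in eA alone, and Pdgfrb, Dcn and Lum at no stage, and whether a mesenchymal fraction of the cells takes part in these sites was not tested. One of 19 neuronal genes (Syt1), 1 of 14 oligodendrocyte lineage genes (Enpp6), 0 of 11 microglial genes and 1 of 12 pluripotency genes (Utf1) were given a site. The counts for eA-primed sites were 3, 4, 0 and 1 in the same order, and for aNPC-primed sites 3, 2, 0 and 1. In merged cultures, a mark gained in many cells and one gained in a few cannot be told apart.

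**Figure D5:**
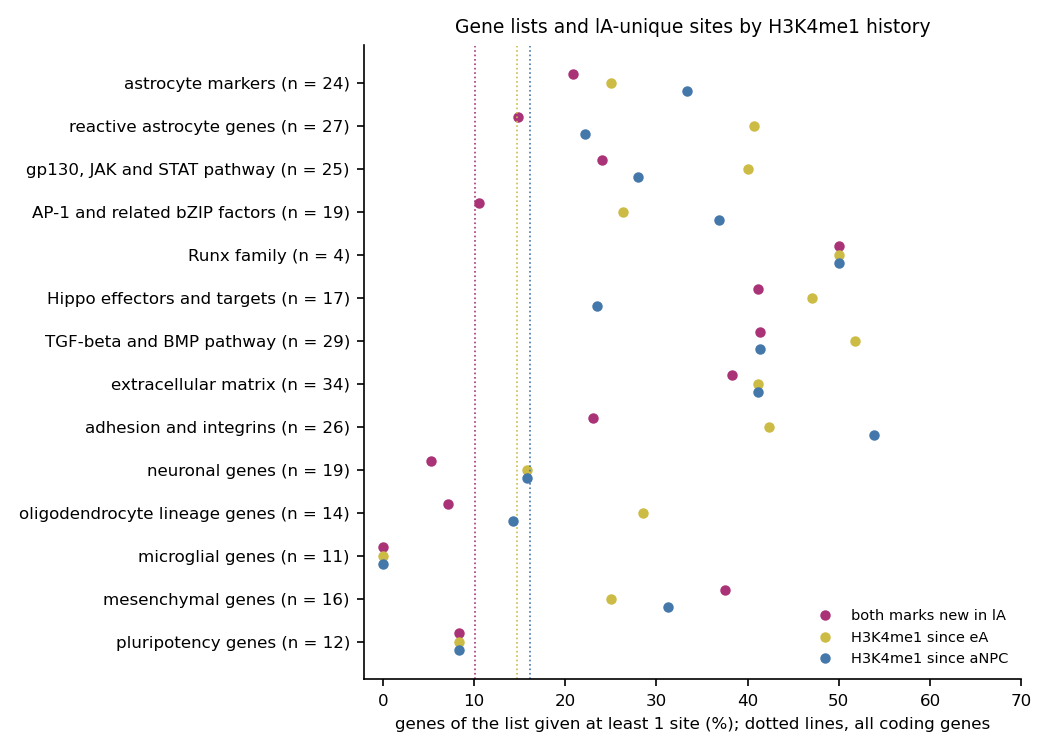
Share of the matched genes of each list (horizontal axis, percent; n in the labels) that were given at least 1 dual-gain site (both marks new in lA), eA-primed site (H3K4me1 since eA) or aNPC-primed site (H3K4me1 since aNPC); dotted lines mark the shares of all coding genes, 10.1%, 14.7% and 16.1%. Dual-gain sites reach 38.2% of the matrix and 41.4% of the TGF-beta and BMP genes, and 0% of the microglial genes.

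The 64 promoter sites belonged to 61 genes, of which 33 had an acetylated coding promoter in aNPC or eA as well. Among all coding genes 55.4% had one, a similar share. The strongest was at Dnahc14, a dynein heavy chain, at chr1:183670675-183671228, 215 bp from a coding start site, with a −log10 q of 17.6. Spna1, a spectrin, followed with 13.5 at 910 bp, and the site at Plxdc1, a plexin domain gene, had 12.6 at 993 bp. These genes were named after their values had been seen.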

How the data were processed

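ChIP-seq of both histone marks was done at 3 stages, with 2 replicates per stage and mark. The authors aligned reads uniquely to mm9 with Bowtie, merged the replicates with SAMtools and called peaks with MACS2 at default settings without input. The deposited score is an integer made from the q-value, the fold of the authors is the enrichment at the summit over local background, and the −log10 values of the authors used here are those of q. Fold was compared only within a single list, and the score was not used. The −log10 q values were also compared within a single list, apart from these uses. Their ranks in the lA lists of both marks were correlated across the dual-gain sites. Some alternatives applied the same −log10 q cut to several lists. Of the 51 samples of the series, 8 RNA-seq samples have conflicting labels and were not used.

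Peaks were intersected with a minimum overlap of 1 bp. A distance of 1 bp means adjacent peaks. Coding genes, exons and start sites came from GENCODE M1 and sequences from NCBIM37, the same build as the lists. Listed symbols without a match on chromosomes 1 to 19 were not counted. Shares have 95% Wilson intervals and differences 95% Newcombe intervals, both for counting error over sites only. No test between stages was possible. The functions were tested on simulated data. The work used pysam 0.24.0, SciPy 1.17.1, NumPy 2.4.6 and matplotlib 3.10.9 under Python 3.11.15.

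The members and gene lists were chosen with earlier results of these data known. The genes and sites named are the 12 sites of highest −log10 q, the 10 genes with most sites, in each list every gene with 3 or more sites and at least the 4 with most, and promoter sites of listed genes. Others are named as counts of their list or at an edge or extreme. Alternatives were other overlap rules, list cuts, windows, GC reweighting and distance limits.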

Additional observations from a re-analysis of the deposited data

How the results depend on the processing

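No paired analysis was possible because each list pools both replicates of a stage and mark. Leaving out a replicate was not run for the same reason. The depth of the merged libraries is unknown.

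The number of dual-gain sites, 4671, was 1911 when no earlier peak was allowed within 1 kb and 2198 with a −log10 q of 5 or more in the lA lists, where the genes given a site were 912 and 1195. Under the other 4 rules it ranged from 3338 to 5921. The intergenic share was 51.2% with summits inside peaks, 55.9% with no earlier peak within 1 kb and 54.6% with the lA lists cut. The share over 1 kb from earlier H3K4me1 was 28.6% with summits inside peaks, 100% by construction with none within 1 kb, 46.7% with the lA lists cut, 58.0% with every list cut and 54.8% with lists of equal length. The share with a wholly new lA H3K4me1 peak was 47.9% with summits inside peaks, 100% with none within 1 kb, 81.3% with every list cut and 76.9% with lists of equal length. The share of genes with an earlier acetylated promoter was 67.6% with every list cut. The promoter share was 3.49% with 1 kb on each side of any start site.

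For motifs, 7 alternatives were applied to 20 differences. The E-box interval excluded 0 in all of them, from -3.83 to -1.27 points against eA-primed and from -8.96 to -2.27 points against aNPC-primed sites. Against eA-primed sites, the 500 bp window gave -3.47 points for AP-1, -2.19 for the NF1 half-site and -2.33 for TEAD, and the whole peak gave -2.50, -3.24 and -3.24, with -2.72 for ETS and, reversed in sign, -2.29 for SOX. All these intervals excluded 0, and peaks of the eA-primed class are wider. Homeobox, called against eA-primed sites, was not called with 500 bp (0.686), whole peaks (0.147), GC reweighting (0.305), outside promoters (0.689), 1 site per 10 kb (0.728) or a −log10 q of 5 or more (0.322), and was reversed with no earlier peak within 1 kb (-0.114).

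Against aNPC-primed sites, the whole peak gave -1.73 points for RUNX, -1.90 for SOX and -1.75 for ETS, all called, and GC reweighting gave -1.53 for SOX, also called. Peaks of the aNPC-primed class are wider too, with a median of 294 bp compared with 276 bp. FOX was 1.10 and called with 500 bp, reversed in sign. The NF1 half-site difference was lost with no earlier peak within 1 kb (-1.09) and reversed with a −log10 q of 5 or more (0.0552). STAT was lost with GC reweighting (0.824). TEAD was lost with 500 bp (1.08), whole peaks (0.587) and outside promoters (1.21). The causes of these changes were not tested.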
